A study of Ericerus pela with 8 samples.

Results

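The unigenes described here were those of the white wax scale insect Ericerus pela whose best protein match was named as a subunit of the mitochondrial respiratory chain. A unigene is an assembled transcript fragment. Members had a match description naming NADH dehydrogenase, NADH-ubiquinone, succinate dehydrogenase, cytochrome b-c1, ubiquinol-cytochrome, cytochrome c oxidase or ATP synthase. At least 10 reads in 1 of the 8 libraries were also required. These words matched 68 unigenes, 27 stayed under 10 reads in every library, and 41 were kept of 147509 unigenes read in the series, of which 63987 reached 10 reads. By their descriptions 18 belonged to complex I, 5 to complex II, 2 to complex III, 1 to complex IV and 7 to complex V. The other members were 6 subunits of the vacuolar ATPase, 1 assembly factor and 1 ATP synthase that its description did not place. The gene ontology component of that last unigene named a vacuolar-type ATPase. The 41 unigenes matched 39 distinct proteins and had a median length of 239 bases, against 241 over all unigenes, so several may be pieces of 1 gene. Of 33 members of complexes I to V, 22 also carried a gene ontology component naming the mitochondrion, the respiratory chain or a proton-transporting ATPase, and 8 carried no component term.

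Complexes I and II take electrons from NADH and succinate, complex III passes them to cytochrome c, and complex IV gives them to oxygen. Complexes I, III and IV pump protons across the inner mitochondrial membrane, and complex V, the ATP synthase, makes ATP as the protons flow back. Most subunits come from nuclear genes, a few from mitochondrial DNA, and insect flight muscle is known for its dense, highly active mitochondria. The vacuolar ATPase is a related rotary pump that spends ATP to acidify compartments. It is not part of the chain, but its older name contains the searched words.

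The series compared the sexes through development by RNA-seq, with 1 library per group. Females were sampled as first-instar larvae, second-instar larvae and early-stage, middle-stage and later-stage adults, and males as first-instar larvae, second-instar larvae and adults. Adult males of this insect are winged, and adult females are wingless and sessile. The labels give no strain, host, number of insects or dissected tissue, so a lower level in a library may come from fewer cells of a type or from less RNA per cell, which cannot be told apart. Libraries held 1460674 to 2303199 assigned reads, and levels are CPM, the count per 1000000 reads of that total, so a count of 0 allows up to 1.30 to 2.05 CPM. With no second library in any group there is no replicate error within a stage. Intervals are exact 95% intervals that cover counting error only.

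Marker lists moved with sex and stage as well. The 88 unigenes matched to muscle proteins summed to 8870 CPM in male adults and to 1409 to 4316 CPM in the other 7 libraries, and 1 of the 88 was at 0 reads in male adults against 11 in later-stage females. The 23 germline and yolk unigenes summed to 1930 CPM in later-stage females and to 100 to 431 CPM elsewhere. Of these, 11 were at 0 reads in male adults, 10 in second-instar females and 0 in later-stage females. A unigene entered these lists by at least 10 reads in any 1 library, which favours few counts of 0 where a list is high. With at least 20 reads in either library, 21 germline and yolk unigenes were measured between later-stage and middle-stage females. Between middle-stage and early-stage females 8 were. The 4 sperm unigenes were lowest in male adults, at 25.5 CPM against 42.3 to 57.7 CPM elsewhere. The part of muscle, egg or other cells in the results below was not tested. TMM scaling, which sets the bulk of unigenes equal, gave factors of 1.01 to 1.10 for 7 libraries and 0.707 for male adults. It moved the median log2 ratio of all unigenes in male adults over second-instar males from -0.63 to -0.07. Male adult levels are therefore read against the other unigenes of that library, and results that turn with the scaling are given with both values.

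**Figure D1:**
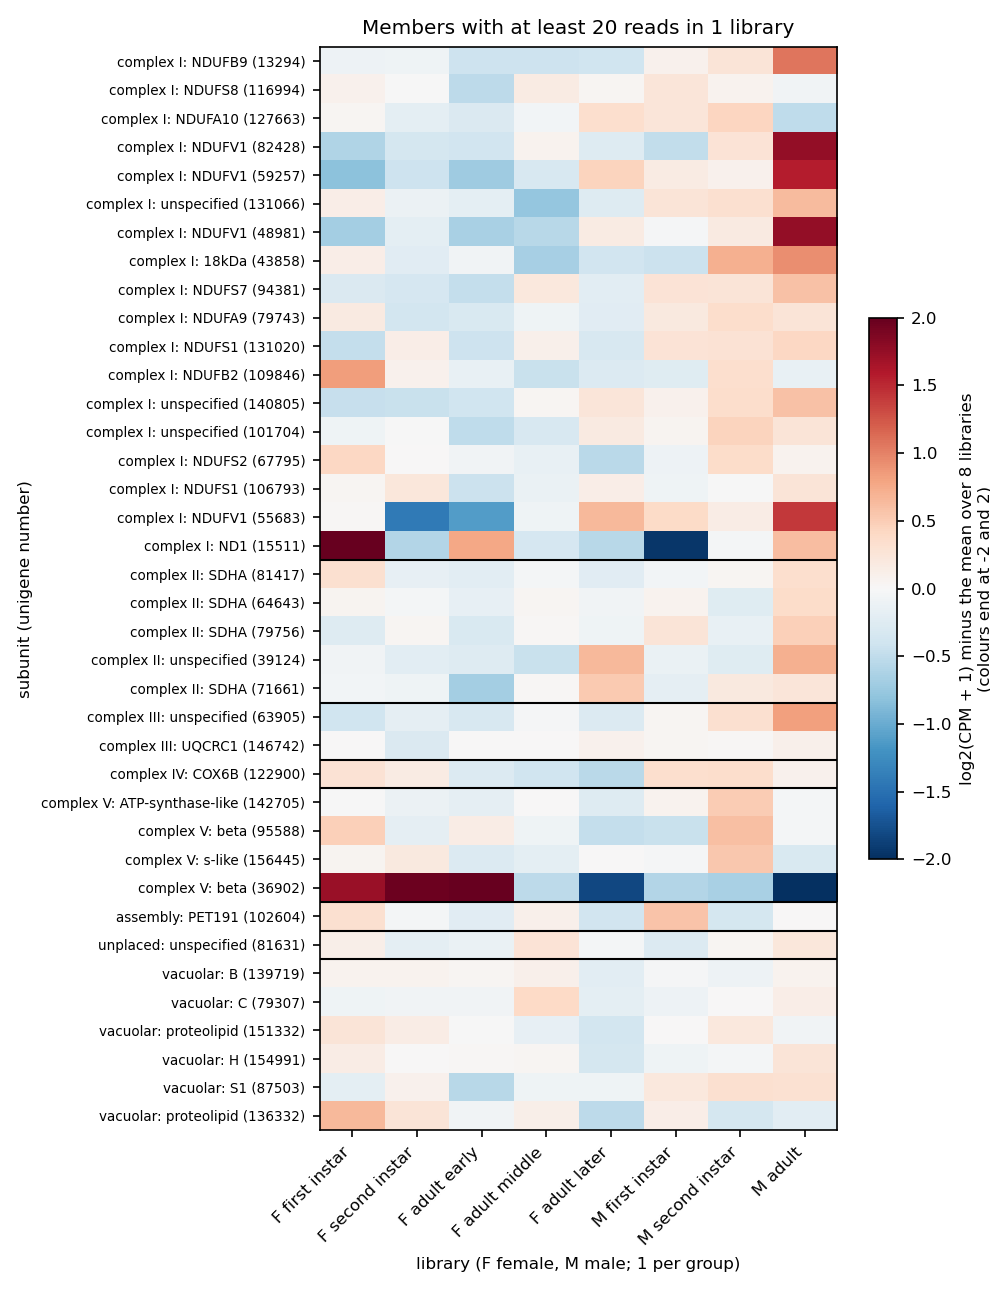
Level of each of the 38 members with at least 20 reads in 1 library, as log2(CPM + 1) minus the member's own mean over the 8 libraries, with rows grouped by complex and ordered by mean RPKM. Most rows are pale, the 4 NDUFV1 rows are darkest red in male adults, and 1 ATP synthase beta row is red in the first 3 female libraries only.

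The median range of the members was smaller than that of all unigenes. Over the 8 libraries, the range of log2(CPM + 1) had a median of 0.95 among the 38 members with at least 20 reads in 1 library, against 2.21 among the 45593 unigenes that reached 20 reads. It stayed under 2-fold for 21 of the 38 members (55.3%) and for 8.3% of all such unigenes. With TMM scaling the medians were 1.23 and 2.11, and 9 of the 38 members stayed under 2-fold (23.7%), against 11.2%. The 2 sets were not matched for depth. At least 100 reads in 1 library were reached by 19 of the 38 members and by 9897 of the 45593 unigenes. Counting error widens the range at low counts, and its part in this difference was not tested. The widest range, 4.41, was that of an ATP synthase beta unigene. By header totals the 6 members above 4-fold were that beta unigene, the mitochondrially encoded ND1 and the 4 unigenes of NDUFV1.

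Complex I, NADH dehydrogenase, was higher in male adults than in the other libraries. Its 18 unigenes summed to 799 CPM in female first-instar larvae, 745 CPM in female second-instar larvae, and 630, 723 and 786 CPM in early-stage, middle-stage and later-stage adult females. In males the sum was 879 CPM at the first instar, 1005 CPM at the second instar and 1375 CPM in adults. Each male library lay above each female library. Male adults stood 2.18-fold (2.04 to 2.34) above early-stage, 1.90-fold (1.77 to 2.05) above middle-stage and 1.75-fold (1.64 to 1.87) above later-stage adult females, and 1.37-fold (1.29 to 1.45) above second-instar males.

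NDUFV1 and NDUFB9 together held most of that excess. NDUFV1 is the flavoprotein that binds NADH and takes its electrons, and 4 unigenes of 163 to 205 bases matched it. Summed over the 4, it was at 72.3, 88.7, 76.5, 101 and 127 CPM in the 5 female libraries from first instar to later-stage adult, and at 106, 132 and 382 CPM in first-instar, second-instar and adult males. Male adults stood 2.90-fold (2.52 to 3.33) above second-instar males, and 5.0-fold (4.19 to 6.0), 3.77-fold (3.16 to 4.54) and 3.02-fold (2.60 to 3.52) above early-stage, middle-stage and later-stage females. Apart from male adults the order was not one of sex, since later-stage females and second-instar males differed by less than their counting intervals.

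Male adults were the highest library for each of the 4 unigenes, which differed among themselves elsewhere. Unigene82428_FOB had 70, 73, 74, 75 and 76 reads in the 5 female libraries and 80, 129 and 310 in first-instar, second-instar and adult males. Unigene59257_FOB, matched to a mealybug protein, had 42, 49, 41, 40 and 88 reads in females and 89, 80 and 193 in males, and Unigene48981_FOB had 37, 46, 34, 27 and 58 in females and 62, 68 and 176 in males. From middle-stage to later-stage females the ratio was 1.72 (1.17 to 2.57) for Unigene59257_FOB and 0.794 (0.569 to 1.11) for Unigene82428_FOB, and from first-instar to second-instar males 0.949 (0.693 to 1.30) and 1.70 (1.28 to 2.28). Unigene55683_FOB was sparse, with 2 to 14 reads in females and 14, 11 and 25 in males. From second-instar to adult males the 4 ratios lay close together, at 2.85 (2.31 to 3.53) for Unigene82428_FOB, 2.86 (2.19 to 3.76) for Unigene59257_FOB, 3.07 (2.31 to 4.12) for Unigene48981_FOB and 2.69 (1.28 to 6.07) for Unigene55683_FOB, all short of the 4-fold rule below. NDUFV1 was singled out after its values were seen.

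NDUFB9, an accessory subunit of the membrane arm, had the highest level per length of all members, with a mean of 633 RPKM (CPM divided by the length in units of 1000 bases). Unigene13294_FOB had 338, 298, 247, 181 and 233 reads in the 5 female libraries and 406, 435 and 644 reads in first-instar, second-instar and adult males. Each male library was above each female library, from 124 to 155 CPM in females and from 176 to 350 CPM in males. Its best match was to a blood fluke protein and not to an arthropod. Without NDUFV1 and NDUFB9 the other 13 complex I unigenes summed to 643 CPM in male adults and 674 CPM in second-instar males, a ratio of 0.954 (0.883 to 1.03), which TMM scaling turns to 909 against 624 CPM. They summed to 429 to 573 CPM in the 5 female libraries.

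The complex I subunits next in level per length had lower CPM in male adults than in either male instar. NDUFS8, an iron-sulfur protein of the peripheral arm, averaged 326 RPKM and had 207, 170, 122, 145 and 170 reads in females and 242, 203 and 155 in males. With TMM scaling NDUFS8 was highest in male adults, at 119 against 59.6 to 98.3 CPM elsewhere. NDUFA10, the 42 kDa accessory subunit, averaged 302 RPKM, with 214, 157, 152, 133 and 221 reads in females and 258, 276 and 122 in males. By header totals male adults had the lowest NDUFA10 level of the 8 libraries at 66.3 CPM, 0.524 times (0.420 to 0.651) the second-instar male level. With TMM scaling they were at 93.7 CPM, above 4 of the 5 female libraries and below second-instar males at 117 CPM. Subunits of 1 complex thus ran from 0.524-fold to 3.07-fold between the same 2 libraries.

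**Figure D2:**
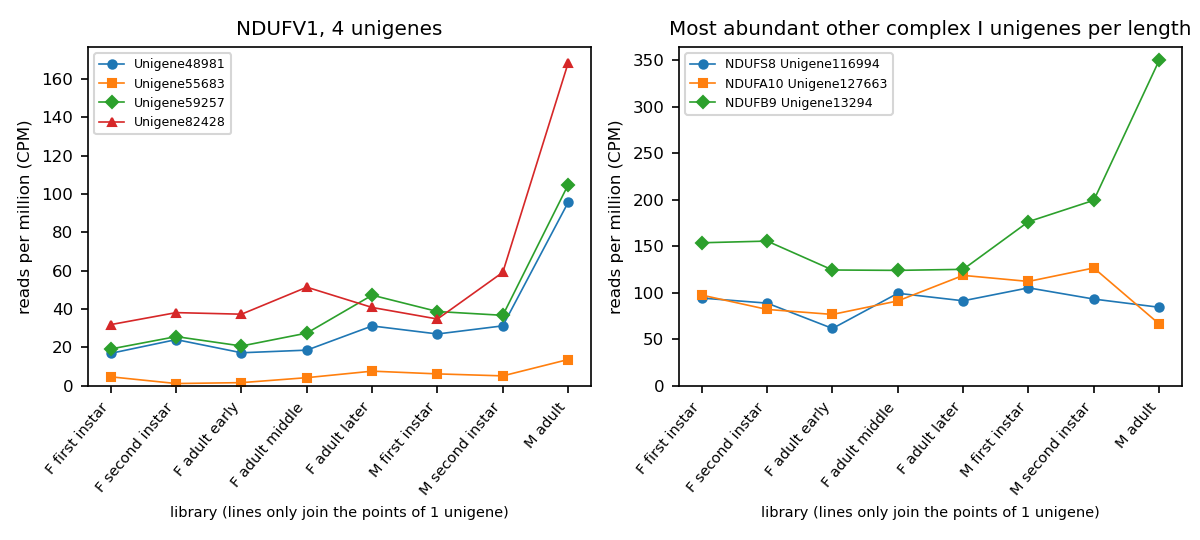
CPM of the 4 NDUFV1 unigenes (left) and of the 3 complex I unigenes with the highest mean RPKM (right) in each library, with lines joining the values of 1 unigene. NDUFV1 and NDUFB9 peak in male adults, where NDUFA10 has its lowest value by header totals, though not with TMM scaling.

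Of the subunits encoded in mitochondrial DNA only 2 were members. ND1, a core membrane subunit of complex I, had 33 reads in female first-instar larvae, 3 in second-instar females, 11, 3 and 3 in early-stage, middle-stage and later-stage females, and 0, 6 and 9 in first-instar, second-instar and adult males (Unigene15511_FOB). First-instar females stood at least 11.5-fold above first-instar males, computed against a floor of 3 reads in the male library. They were 9.59-fold (3.01 to 48.9) above second-instar females. ATP6, the membrane subunit of complex V that forms the proton path, had 12 reads in middle-stage females, 5 in second-instar males and 0 in the other 6 libraries (Unigene122323_FOB). These counts of the 2 unigenes are near the floor in most libraries.

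Complex II, succinate dehydrogenase, is also an enzyme of the tricarboxylic acid cycle. Its 5 unigenes summed to 161, 139, 124, 145 and 147 CPM in the female libraries and to 152, 143 and 198 CPM in males. Male adults were highest, 1.39-fold (1.19 to 1.62) above second-instar males and 1.35-fold (1.15 to 1.58) to 1.59-fold (1.35 to 1.88) above the adult females. Of these unigenes 4 matched SDHA, the flavoprotein that oxidises succinate. The most abundant, Unigene81417_FOB at a mean of 337 RPKM, had 186, 115, 116, 96 and 107 reads in females and 150, 152 and 158 in males, with the first-instar female and adult male levels at 84.5 and 85.8 CPM. Unigene64643_FOB (46 to 74 reads) and Unigene79756_FOB (44 to 82 reads) were each highest in male adults, at 39.7 and 41.3 CPM. The best match of Unigene64643_FOB was to a salmon protein, and it was 1 of 5 members matched outside the arthropods. The widest range in the complex was that of Unigene71661_FOB, at 11 to 26 reads.

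Complexes III and IV were thinly covered. A unigene described only as a ubiquinol-cytochrome c reductase, Unigene63905_FOB, had 68, 69, 65, 59 and 63 reads in females and 97, 112 and 134 in males. All 3 male levels, from 42.1 to 72.8 CPM, were above all 5 female levels, from 30.9 to 40.4 CPM, but with TMM scaling first-instar males, at 38.3 CPM, were below middle-stage females, at 40.0 CPM. The other complex III unigene matched UQCRC1, a core protein of the cytochrome b-c1 complex, and ranged from 11.0 to 14.7 CPM, or to 20.7 CPM in male adults with TMM scaling (Unigene146742_FOB). Complex IV was represented by COX6B alone, a small subunit on the outer face (Unigene122900_FOB). It had 50, 40, 30, 20 and 23 reads in females and 54, 52 and 36 in males. Every larval level, from 20.9 to 23.8 CPM, was above every adult level, from 12.3 to 19.6 CPM. The counting interval of every larval library overlaps that of every adult library, however, and with TMM scaling male adults were highest at 27.7 CPM.

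**Figure D3:**
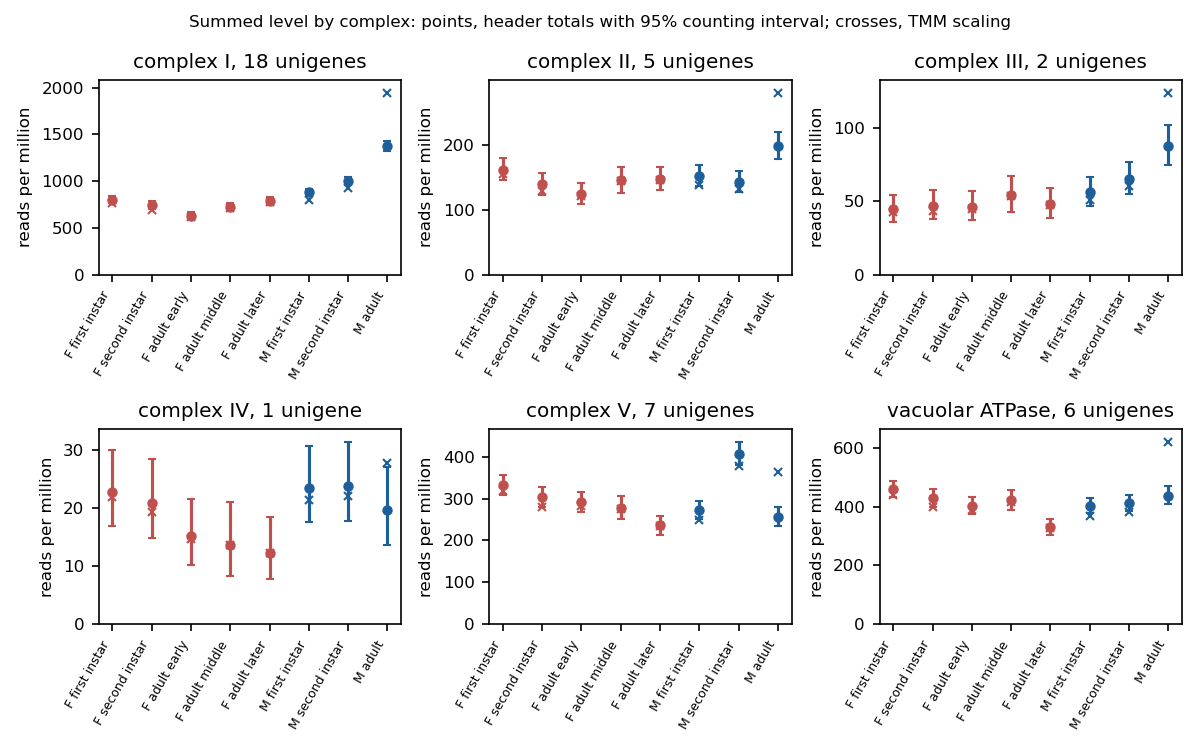
Summed CPM of the members of each complex in each library, females in red and males in blue, with exact 95% counting intervals (points) and with TMM scaling (crosses). Complexes I, II and III are highest in male adults and complex V in second-instar males, and in each panel the TMM scaling lifts male adults most.

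Complex V followed another order. Its 7 unigenes summed to 332, 304, 291, 278 and 236 CPM in the female libraries and to 273, 407 and 256 CPM in first-instar, second-instar and adult males. Second-instar males, the stage known for wax secretion, were highest, and adult males were at 0.629 times (0.562 to 0.704) that level. TMM scaling brought these to 377 and 363 CPM, so the lower adult male level depends on the scaling. By header totals the 3 abundant unigenes all peaked in second-instar males. An ATP synthase-like unigene of unspecified subunit had 326, 262, 261, 219 and 230 reads in females and 358, 462 and 266 in males (Unigene142705_FOB), and with TMM scaling it was at 196 CPM in second-instar and 204 CPM in adult males. A beta unigene matched to a mealybug, Unigene95588_FOB, had 168, 92, 121, 75 and 73 reads in females and 92, 182 and 98 in males, and beta holds the catalytic sites. The unigene matched to subunit s-like protein, Unigene156445_FOB, had 163, 157, 117, 91 and 135 reads in females and 163, 229 and 107 in males. It carried no gene ontology term, so its place in complex V rests on the match name alone. Of the 3 abundant unigenes only the beta unigene was described as a defined subunit without the word like.

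A second beta unigene behaved differently. Unigene36902_FOB had 51, 53 and 63 reads in first-instar, second-instar and early-stage adult females. It had 6 and 2 reads in middle-stage and later-stage females, and 9, 8 and 1 in first-instar, second-instar and adult males. The first 3 female libraries thus stood apart from the other 5. Females were 5.93-fold (2.89 to 13.7) above males at the first instar and 7.54-fold (3.56 to 18.4) at the second, and early-stage females were 7.72-fold (3.36 to 21.8) above middle-stage females. Unigenes matched to alpha, which alternates with beta in the catalytic head, and to gamma, its central shaft, had few reads and lay in the same libraries. Alpha had 11, 9 and 10 reads and gamma 12, 9 and 7 in the first 3 female libraries, and both had 0 to 3 in the other 5 (Unigene27632_FOB and Unigene32859_FOB).

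The best match of the alpha unigene was to mouse, that of the beta unigene to a database entry with the species code of carp, and that of gamma to a crustacean. Together the 3 unigenes summed to 33.6, 37.0 and 40.3 CPM in those female libraries and to 0.543 to 6.51 CPM elsewhere. The source of these transcripts was not tested.

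**Figure D4:**
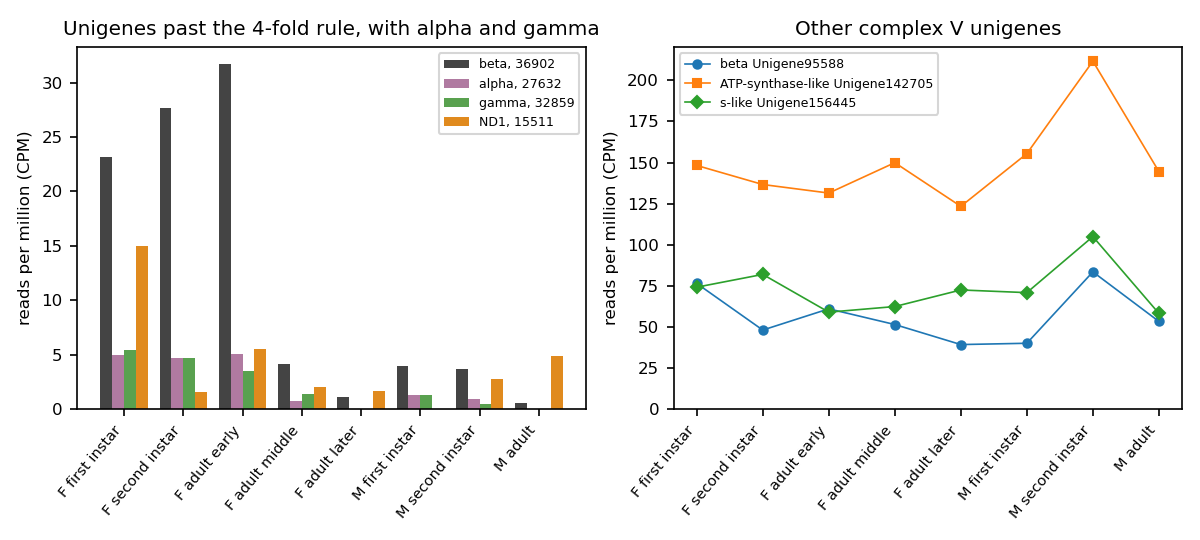
CPM in each library of the second beta unigene with alpha, gamma and ND1 (left, bars) and of the 3 abundant complex V unigenes (right, lines joining the values of 1 unigene). The beta bars reach 23.2 to 31.7 CPM in the first 3 female libraries and at most 4.11 CPM elsewhere, whereas the 3 unigenes on the right peak in second-instar males by header totals, though with TMM scaling Unigene142705_FOB is slightly higher in male adults.

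The vacuolar ATPase had the smallest spread of summed level by header totals, 1.39-fold, against 1.60-fold to 2.18-fold for complexes I to V. With TMM scaling its spread was 1.89-fold and that of complex V 1.61-fold. Its unigenes summed to 459, 429, 402, 421 and 330 CPM in females and to 403, 412 and 437 CPM in males, and TMM scaling took male adults to 619 CPM. Subunit B, in the ATP-hydrolysing head, averaged 233 RPKM and had 219, 191, 193, 149 and 153 reads in females and 214, 193 and 183 in males (Unigene139719_FOB). Subunit C had 63 to 85 reads (Unigene79307_FOB). The proteolipid, which forms the rotating membrane ring, matched a unigene of 126 to 256 reads (Unigene151332_FOB). By header totals it was lower in every adult than in every larval library, but with TMM scaling male adults were highest, at 131 CPM. The other proteolipid unigene had the widest range in the group, from 102 reads in first-instar to 37 in later-stage females (Unigene136332_FOB). PET191, which assists complex IV assembly, had 15 to 38 reads (Unigene102604_FOB), and the unplaced ATP synthase 43 to 62 reads (Unigene81631_FOB).

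By the 4-fold rule few members differed between libraries. The rule asked for a log2 ratio of at least 2 in size with 1 CPM added to each level and at least 20 reads in either library. At the first instar 2 of 37 measured members, ND1 and the second beta unigene, were higher in females and 0 lower, where 2.79% and 0.766% of all measured unigenes were. At the second instar 1 of 36, the same beta unigene, was higher in females and 0 lower, against 3.67% and 2.64%. In adults a call needed all 3 female stages to pass against the male library in 1 direction, and 0 of 36 were higher and 0 lower in females, against 7.80% and 9.34%. The second beta unigene was not among these 36, since middle-stage females, later-stage females and male adults each had under 20 reads of it. Early-stage females were 58.4-fold (10.1 to 2342) above male adults in that unigene. For middle-stage and later-stage females the ratios were 7.56 (0.917 to 348) and 1.97 (0.103 to 116). With TMM scaling 2 NDUFV1 unigenes, Unigene48981_FOB and Unigene82428_FOB, became lower in adult females.

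Among the developmental steps, 0 of 37 members were higher and 1, ND1, was lower in second-instar than in first-instar females, where 1.16% and 1.43% of all unigenes passed. From second-instar to early-stage adult females 0 of 34 passed in either direction, against 1.23% higher and 0.119% lower. From early-stage to middle-stage females 0 of 33 were higher and 1, the second beta unigene, was lower, against 2.77% and 7.60%. From middle-stage to later-stage females 0 of 34 passed, against 3.89% higher and 4.47% lower. In males 0 of 35 passed between the instars, against 3.95% higher and 4.26% lower, and 0 of 36 between the second instar and the adult, against 10.1% higher and 17.4% lower. In that last step the 36 members, vacuolar ATPase included, had a median log2 ratio of 0.18 and all unigenes -0.63, or 0.78 and -0.07 with TMM scaling, and 3 NDUFV1 unigenes then passed the rule.

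Across stages, sex and development were tested with edgeR on all 8 libraries, with sex and stage as additive terms. The 3 adult female libraries were taken as 1 adult stage. The error comes from departures from additivity and from the spread of those 3 libraries, and not from replicates of a stage. Of the 38 members tested 0 passed an adjusted p (Benjamini-Hochberg) of 0.05 in either direction for sex, for second against first instar, or for adults against larvae. Over all 51155 unigenes tested edgeR also called 0% in each direction of each test, and DESeq2 called 90, 6 and 141 unigenes in the 3 tests, of which 0 were members. At an unadjusted p under 0.05 edgeR gave 8, 0 and 1 members in the 3 tests, against 4.67%, 1.27% and 4.03% of all unigenes, and DESeq2 gave 9, 0 and 2 members, against 6.91%, 2.13% and 5.24%.

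For sex, the 8 were the 4 NDUFV1 unigenes, NDUFS7, an unspecified complex I unigene (Unigene140805_FOB), the ubiquinol-cytochrome c reductase unigene and the second beta unigene, each at an edgeR adjusted p of 0.886. The 4 NDUFV1 unigenes match 1 subunit and may be pieces of 1 gene, so the 8 may not be separate genes. The NDUFV1 estimates, as log2 of female over male, were -1.51 ± 0.51 (SE) for Unigene48981_FOB, -1.64 ± 0.65 for Unigene55683_FOB, -1.44 ± 0.46 for Unigene59257_FOB and -1.38 ± 0.51 for Unigene82428_FOB. The beta unigene was estimated at 3.03 ± 1.11, and was the only one of the 8 with a higher estimate in females. Of 38 members 35 had an estimate below 0, with a median of -0.38, where 48.3% of all unigenes did, with a median of 0.03. Without the male adult library 23 of 38 were below 0, with a median of -0.10, against 49.8% of all, and 0 members were under an unadjusted p of 0.05. For adults against larvae 8 of 38 estimates were below 0, against 50% of all unigenes. Without male adults 22 of 38 were, against 48.2%, and with header totals alone 20 of 38, against 66.9%.

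Male adults were the highest library for 18 of the 38 members, against 17.7% of the 45593 unigenes with at least 20 reads, and the lowest for 3, against 40.1%. With TMM scaling these were 31 members against 27.8% and 1 member against 27.9%. The 18 and the 31 members both include the 4 NDUFV1 unigenes, which may be pieces of 1 gene. Second-instar males were highest for 8 members, against 13.5%, and with TMM scaling for 2, against 10.2%. Every male library was above every female library for 7 members, against 1.36%, and every female library above every male library for 0, against 1.38%. The 7 were NDUFB9, NDUFA9, NDUFS7, a 75 kDa NDUFS1 unigene and an unspecified unigene of complex I (Unigene131066_FOB), the ubiquinol-cytochrome c reductase unigene, and subunit S1 of the vacuolar ATPase, named after their values were seen. With TMM scaling 4 members kept the pattern, against 1.58%, and NDUFS7, NDUFA9 and the ubiquinol-cytochrome c reductase unigene lost it. NDUFS1, the iron-sulfur protein that carries electrons from the flavoprotein, had 69, 92, 65, 69 and 65 reads in females and 123, 118 and 108 in males (Unigene131020_FOB). The other NDUFS1 unigene did not have the pattern, with 56, 56, 36, 33 and 51 reads in females and 54, 54 and 55 in males (Unigene106793_FOB). NDUFS7, which hands electrons to the quinone, had 58, 49, 46, 55 and 52 reads in females and 91, 85 and 91 in males (Unigene94381_FOB). Every adult library was above every larval library for 0 members, against 0.667%, and every larval above every adult library for 2, COX6B and a vacuolar proteolipid, against 2.39%. Neither larval pattern held with TMM scaling, where 0 members and 1.08% of all unigenes had it, and UQCRC1 was then higher in every adult library, against 1.27%.

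Other mitochondrial lists held unigenes past the 4-fold rule in male adults, in both directions. Of 22 measured unigenes of the tricarboxylic acid cycle, 6 were at least 4-fold higher in male adults than in second-instar males and 0 lower, where 10.1% and 17.4% of all unigenes were. Citrate synthase, which starts the cycle, had 27 to 102 reads in the other 7 libraries and 1701 in male adults (Unigene122804_FOB). Mitochondrial aconitase had 64 to 146 and 863 (Unigene151787_FOB), and 2-oxoglutarate dehydrogenase 18 to 31 and 213 (Unigene103819_FOB). The list also holds cytoplasmic and NADPH-specific forms. Of the 22 unigenes 10 had a log2 ratio below 0, among them fumarate hydratase, with 149 to 280 reads elsewhere and 58 in male adults (Unigene145639_FOB), and succinyl-CoA synthetase, with 40 to 75 and 31 (Unigene109716_FOB). Of 17 fatty acid beta-oxidation unigenes 6 were higher and 1 lower, against the same 10.1% and 17.4% of all unigenes. An acyl-CoA dehydrogenase had 45 to 73 reads elsewhere and 1318 in male adults (Unigene117484_FOB). The median of the 17 was -0.46, with 10 below 0, and 9 reached 20 reads in second-instar males and not in male adults. A glycerol-3-phosphate dehydrogenase, of a family that includes an enzyme feeding electrons to the chain, had 58 to 168 reads elsewhere and 1634 in male adults (Unigene107240_FOB), and was the 1 of 4 electron carrier and feeder unigenes that passed.

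Unigenes of protein import and of the mitochondrial ribosome were lower in the same library. Of 19 measured protein import and carrier unigenes 9 were at least 4-fold lower in male adults than in second-instar males and 0 higher. In that step 17.4% of all unigenes were lower and 10.1% higher. The median log2 ratio of the 19 was -1.98, against -0.63 for all unigenes. TOM40, the pore through which proteins enter, had 172 to 297 reads elsewhere and 12 in male adults (Unigene149221_FOB). Of 25 mitochondrial ribosomal protein unigenes 11 were lower and 0 higher, with a median of -1.88, and ribosomal protein L17 had 161 to 347 reads elsewhere and 21 in male adults (Unigene153783_FOB). With TMM scaling these medians were -1.41 and -1.31. Of the 19 import and carrier unigenes 13, and of the 25 ribosomal unigenes 10, reached 20 reads in second-instar males and not in male adults. For those unigenes the filter itself favours a ratio below 0. The 28 measured unigenes of complexes I to V, at a median of 0.23 (0.83 with TMM), lay between these lists and the tricarboxylic acid cycle, at 0.57 (1.16 with TMM). Of the 22 cycle unigenes 6 reached 20 reads through second-instar males alone and 3 through male adults alone, so the filter bears on these medians. Of 5 glycolysis unigenes 0 were higher and 1 lower, close to the share of all unigenes that were lower. In the same step 19 of 81 measured muscle unigenes were higher and 0 lower, against 10.1% and 17.4% of all unigenes. Of the 81, 14 reached 20 reads in male adults and not in second-instar males, which favours a ratio above 0.

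**Figure D5:**
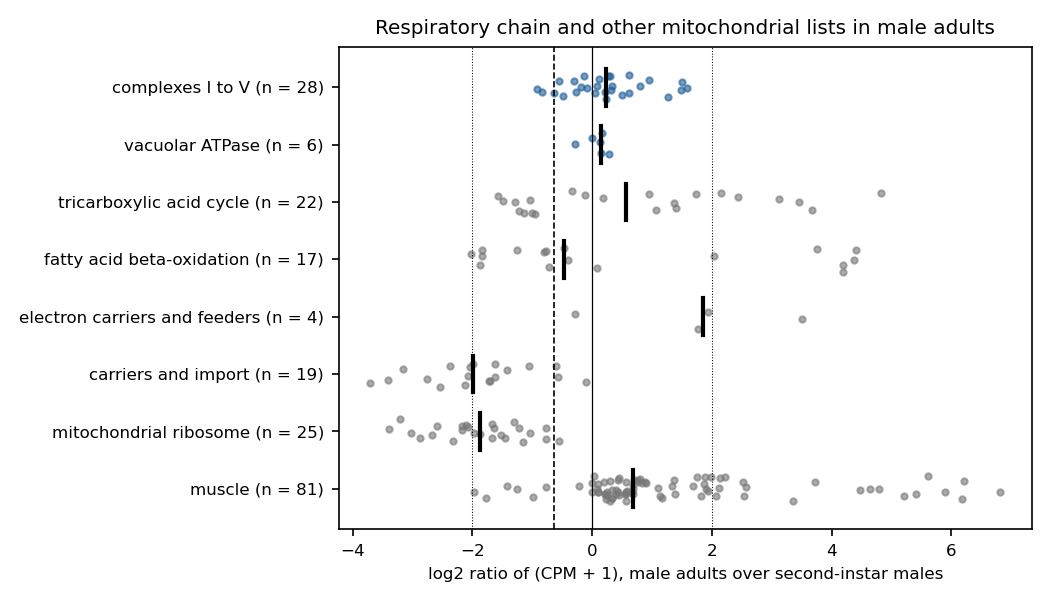
Log2 ratio of CPM + 1 in male adults over second-instar males for each measured unigene of complexes I to V and the vacuolar ATPase (blue) and of 6 other lists (grey), with the list median as a black bar, the 4-fold limits dotted and the median of all unigenes, -0.63, dashed. No respiratory chain point lies outside the limits, whereas import and mitochondrial ribosome points lie to the left and some cycle, beta-oxidation and muscle points far to the right.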

How the data were processed

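RNA was measured by sequencing in 8 libraries, 1 per group, and groups followed the titles. Per the file headers, the authors give for each unigene the count of uniquely assigned reads, RPKM, the percent of its length covered, its length, gene ontology terms and best protein match. Unigenes not listed in a file were taken as 0. Counts were scaled by the header total. The deposited RPKM was checked against counts and lengths and served to rank members. The deposited percent covered was only tabulated. For aligner, assembler and strand setting the sources used here give nothing, nor for how reads of near-identical copies were counted. No sequence or coordinate is given because no genome was used.

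Subunits were assigned by hand from match descriptions. Members, lists and tests were chosen with earlier results of these data known. Unrelated matches, such as transaldolase, Erlin and unconventional myosins, were removed from the lists by name after they were seen. Members were named when past the 4-fold rule, when mitochondrially encoded, when among the 3 highest by mean RPKM in a complex, or when widest in range there, and from other lists those past the rule in most comparisons. Outside this rule, NDUFV1 and the members above in every male library are marked in the text. Also named outside it were the NDUFS1 unigene without that pattern and the members at an unadjusted p under 0.05 for sex. Fumarate hydratase and succinyl-CoA synthetase were named outside it too, as unigenes with a ratio below 0.

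Ratios use CPM without the added amount, with exact conditional binomial intervals, and sums have exact Poisson intervals (SciPy 1.17.1, Python 3.11.15, pandas 2.3.3). Tests across stages used edgeR 4.0.16 in R 4.3.3 (filterByExpr, TMM, glmQLFit, glmQLFTest) with sex and stage as additive terms and 4 residual degrees of freedom, with Benjamini-Hochberg adjustment over 51155 unigenes. The script was tested on simulated data. DESeq2 1.42.0, other scalings and filters, arthropod matches alone and leaving out each library were tried as alternatives. Figures were drawn with matplotlib 3.10.9.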

Additional observations from a re-analysis of the deposited data

How the results depend on the processing

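No paired analysis was possible because each group holds replicate number 1 only. The 3 tests across stages called 0 members under every alternative run (header totals alone, no filter beyond 10 reads, DESeq2, arthropod matches alone and each library left out). Every edgeR alternative also called 0 of all unigenes tested, and arthropod matches alone only took a part of the main result. DESeq2 was thus the only alternative that called any unigene. Counts of members 4-fold apart moved as follows. With 5 CPM added, 0 differed by sex at the first instar, 0 at the second and 0 between the instars of females. With at least 100 reads asked for, 0 differed in each of these and from early-stage to middle-stage females. With at least 10 reads, 2 differed in the last step and 1 from middle-stage to later-stage females, since ATP6 came in. With arthropod matches alone, 1 differed by sex at the first instar, 0 at the second and 0 from early-stage to middle-stage females. With TMM scaling, 2 differed between adult females and males and 3 between adult and second-instar males. In the other comparisons these counts stayed as reported.

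Some checks were chosen after seeing the data. With TMM scaling 31 of 38 members were highest in male adults (27.8% of all unigenes) and 1 was lowest there (27.9%). In the same scaling 2 were highest in second-instar males (10.2%), 4 were above in every male library (1.58%), 0 in every larval library (1.08%), and 9 stayed under 2-fold in range (11.2%). With at least 100 reads 10 of 19 were highest in male adults (25% of all). The beta-oxidation median in male adults over second-instar males turned from -0.46 to 0.09 with TMM scaling. Asking for at least 100 reads gave 4.19, but 5 of the 6 unigenes left reach 100 reads in male adults and not in second-instar males, so that filter fixes the sign.

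With TMM scaling complex I stood at 690 CPM in second-instar females and 799, 931 and 1945 CPM in the 3 male stages. For male adults complexes II, III and IV were at 280, 124 and 27.7 CPM. Complex V was at 248, 377 and 363 CPM in the 3 male stages. The vacuolar ATPase was at 397 CPM in second-instar females and 367, 382 and 619 CPM in males. Arthropod matches alone leave fewer members. Complex I then summed to 587, 556, 477, 576 and 634 CPM in females and 676, 765 and 996 CPM in males. Complex II summed to 129, 109, 97.1, 114 and 118 CPM and to 119, 117 and 158 CPM. Complex V summed to 304, 271 and 255 CPM in the first 3 female libraries. Depth limits ND1, ATP6, alpha and gamma, whose counts lie near the floor of 3 reads in most libraries.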
